A study of Mus musculus with 24 samples.

Results

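The NR4A nuclear receptors (Nr4a1, Nr4a2 and Nr4a3), the EGR zinc-finger factors (Egr1, Egr2 and Egr3), their corepressor Nab2 and the surface antigen Cd69 were followed in splenic CD4+ T cells during T cell receptor stimulation. The 8 genes were taken by symbol from a raw count table of 54446 mouse Ensembl genes, all 8 were found in it, and all 8 passed the filter on low counts. Cells came from 6 C57BL6 mice, 3 wild type (WT, mice 1, 3 and 4) and 3 lacking Aim2, the cytosolic sensor of double-stranded DNA (Aim2-/-, mice 1, 2 and 4). The labels name no Cre or promoter, so the deficiency is not limited to T cells by the labels. From each mouse there was a control library without stimulation (0 h) plus 1 library each at 3, 6 and 24 h of culture with anti-CD3/CD28, which gave 8 groups of 3 libraries. All libraries share the strain and the spleen as source, and no age was given in the sources used here for these mice. The NR4A genes were already high at 0 h and dropped far below that level by 24 h, whereas Egr1, Egr2 and Nab2 were still above it at 24 h and Egr3 did not pass there. At 6 h all 8 genes were lower in Aim2-/- than in WT cells and 5 of them passed the test. Of all tested genes, 15.8% were called there and 7.01% were called lower. None of the 8 passed without WT mouse 3, without WT mouse 4 or with marker scores of other cell types in the model. Few of all tested genes passed in these settings either, with the shares given below. The libraries labelled WT 1 held Aim2 levels close to those of Aim2-/- libraries, which goes against their label.

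Immediate early genes are switched on by signals that already exist in the resting cell and need no new protein synthesis. In T cells, calcium and the MAP kinase ERK relay the receptor signal to factors such as NFAT, MEF2, CREB and SRF at their promoters. NR4A proteins are nuclear receptors that act without a known natural hormone, and Nr4a1 expression is widely used to read the strength of receptor signalling. EGR proteins bind GC-rich DNA, and Egr2 and Egr3 are known to restrain T cell activation and to support anergy. NAB2 binds EGR proteins, represses their activity and is itself an EGR target. CD69 is a lectin that appears on the surface of T cells soon after activation and holds them in lymphoid tissue by pulling the sphingosine 1-phosphate receptor S1PR1 inside.

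The promoters of the NR4A genes are shown because all 3 carry the cAMP response element half-site CGTCA. It is the core of the sequence that CREB recognises. All 3 genes fell by 24 h, but Nr4a3 did not pass for a rise at any time. RefSeq promoters of 300 bases (250 before and 50 after the start, GRCm38.p6) were given for 5 of the 8 genes, namely Nr4a1, Nr4a2, Nr4a3, Egr2 and Nab2. Capitals mark the half-site on either strand (CGTCA or TGACG), which is also contained in the full palindrome. The first line holds the 250 bases before the start of Nr4a1 at chr15:101266596-101266845 on the plus strand. The next line holds the 250 bases before Nr4a2 at chr2:57124004-57124253 on the minus strand. The third line holds 30 bases of Nr4a3 at chr4:48045070-48045099 on the plus strand, from -235 to -206 relative to the start. This window was picked because no other of its length held more half-sites.
Nr4a1: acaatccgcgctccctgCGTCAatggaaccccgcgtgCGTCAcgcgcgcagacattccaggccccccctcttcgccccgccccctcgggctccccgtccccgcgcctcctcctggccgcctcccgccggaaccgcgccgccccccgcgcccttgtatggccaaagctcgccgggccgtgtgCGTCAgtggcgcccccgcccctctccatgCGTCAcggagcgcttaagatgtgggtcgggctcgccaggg
Nr4a2: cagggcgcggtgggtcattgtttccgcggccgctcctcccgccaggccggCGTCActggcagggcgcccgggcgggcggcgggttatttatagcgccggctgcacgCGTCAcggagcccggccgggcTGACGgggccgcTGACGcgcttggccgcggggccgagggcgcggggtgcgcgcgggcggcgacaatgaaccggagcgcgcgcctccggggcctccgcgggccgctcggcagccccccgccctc
Nr4a3: agggTGACGtagcgtcccatgtCGTCAcat
Each of the 3 NR4A promoters held 4 half-sites, all before the start, of which the stretch printed for Nr4a3 shows 2. Of all 32851 promoters of this length in the table, 20.8% held at least 1 half-site and 0.231% held 4 or more. The full palindrome TGACGTCA, found in 1.79% of all promoters, was in none of the 3, and neither was the NR4A monomer site AAAGGTCA, found in 1.51%. The EGR site GCGNGGGCG, found in 5.55% of promoters, occurred at 1 position each before Nr4a1 and Nr4a2. These are matches of letters and no binding was measured.

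Of the 5 RefSeq promoters given for Egr2, which overlap in part, 4 hold a CArG box, the A/T-rich element that serum response factor binds. Of these 4, 3 also hold CRE half-sites. These 3 overlap and share the same CArG box and the same half-sites, so they are not separate elements. The stretch is shown as the EGR counterpart of the NR4A promoters, in 30 bases at chr10:67537794-67537823 on the plus strand with both elements in capitals.
Egr2: agtCCATATATGGgcagcgaCGTCAcgggt
A CArG box was present in 1.63% of all promoters. None of the motifs searched was found in the 300 bases of Nab2, and that says only that these letters are not in this window.

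Library totals lay between 19715161 and 21627018 counts, so that 3 counts correspond to 0.129 to 0.155 CPM (counts per 1000000 counts of the library), far below every value of the 8 genes. CPM values use library sizes scaled with TMM factors. Aim2 itself stood at 5.28 to 20.1 CPM in the Aim2-/- libraries and at 32.5 to 75.0 CPM in the libraries of WT mice 3 and 4. The 4 libraries labelled WT 1 held 21.5, 17.0, 11.5 and 5.57 CPM of Aim2 over the 4 times, close to the Aim2-/- libraries of the same time (15.7 to 20.1, 14.6 to 15.1, 8.17 to 11.4 and 5.28 to 7.15 CPM), and thus go against their label. Without that mouse the WT changes from 0 h gave 18 calls among the 8 genes against 20 with it, those between neighbouring times 7 against 10, and those between genotypes 5 both times. Shares of all genes are not set beside these counts, so a change in the 8 genes alone cannot be read from them. The values of Egr3 in WT cells moved most, to log2 1.67 at 6 h (1.37 with the mouse) and 0.38 at 24 h (0.09 with it), neither with a change of call. The gene shares within families moved most for Egr1 at 24 h, a gain of 9.39 percentage points without the mouse and 10.2 with it. Means and SDs of WT groups, responses per mouse and correlations are given with it only. All 7 CD4 T cell markers were abundant in every library, with a summed level of 3729 to 5112 CPM. At 6 h the summed B cell, myeloid and NK cell markers were higher in every Aim2-/- than in every WT library, while the erythroid and CD8 T cell sums overlapped. The 10 myeloid markers summed to 90.9 to 296.5 CPM in Aim2-/- and 23.3 to 54.2 CPM in WT cells at 6 h, the 8 B cell markers to 12.2 to 41.2 and 4.33 to 7.89 CPM, the 4 NK cell markers to 75.0 to 92.5 and 47.0 to 59.8 CPM, the 6 erythroid markers to 23.2 to 497.5 and 8.08 to 64.9 CPM, and the 2 CD8 T cell markers to 8.08 to 13.3 and 7.74 to 8.95 CPM. Of the NK cell markers, Eomes stood at 11.2 to 99.3 CPM over all libraries. Ncr1, Klrb1c and Klrd1 reached at most 2.66, 13.8 and 13 CPM, so much of the NK cell sum can come from Eomes alone. Among the defining genes, Cd79a and Csf1r were at 0 in no library, Ms4a1 in 2 and Pax5 in 3. Their part in the results was not tested beyond the model with marker scores given at 6 h. Fewer cells of a type and less RNA per cell cannot be told apart in such bulk samples.

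**Figure D1:**
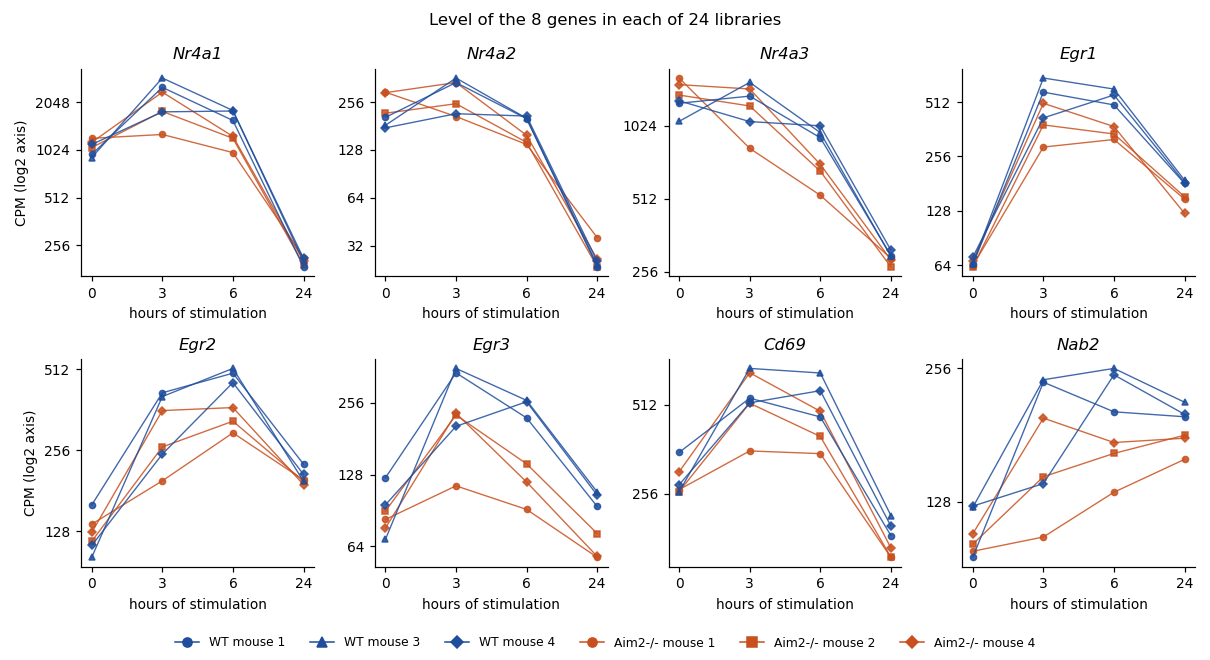
Level of each of the 8 genes (CPM, log2 axis) against hours of stimulation in the 24 libraries, with 1 line per mouse, WT in blue and Aim2-/- in orange. Nr4a1 fell from 917 to 1211 CPM at 0 h to 188 to 215 CPM at 24 h, while Egr1 rose from 62.5 to 70.8 CPM at 0 h to between 289 and 697 CPM at 3 h.

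Nr4a1 (ENSMUSG00000023034, GRCm38 chr15:101254269-101274795, plus strand) encodes Nur77, the receptor whose expression follows antigen receptor signals most closely. In WT mice 1, 3 and 4 it stood at 959, 917 and 1108 CPM at 0 h, 2534, 2903 and 1777 CPM at 3 h, 1569, 1813 and 1799 CPM at 6 h, and 188, 204 and 212 CPM at 24 h. In Aim2-/- mice 1, 2 and 4 it stood at 1211, 1059 and 1142 CPM at 0 h, 1280, 1788 and 2365 CPM at 3 h, 984, 1211 and 1245 CPM at 6 h, and 215, 193 and 204 CPM at 24 h. Every 3 h library lay above all 0 h libraries of its genotype, but at 6 h this held only for WT cells, and every 24 h library lay below all others. The rise at 3 h was 2.42-fold in WT cells (log2 1.27, SE 0.18) and 1.59-fold in Aim2-/- cells (log2 0.67, SE 0.17), with adjusted p = 1.05e-05 and 0.00566 in edgeR's quasi-likelihood test. The Aim2-/- call was lost without Aim2-/- mouse 2 (adjusted p = 0.0589) or Aim2-/- mouse 4 (adjusted p = 0.148). At 6 h Nr4a1 was still 1.74-fold above 0 h in WT cells (adjusted p = 0.000634), whereas in Aim2-/- cells it had returned to the 0 h level (log2 0.01, SE 0.17, 95% interval -0.36 to 0.38). By 24 h the level was 0.202 times that at 0 h in WT and 0.180 times in Aim2-/- cells (log2 -2.31, SE 0.18, and -2.48, SE 0.18).

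Nr4a2 (ENSMUSG00000026826, chr2:57106830-57124003, minus strand) encodes Nurr1, best known from dopamine neurons and present in activated T cells. WT mice 1, 3 and 4 had 205, 183 and 176 CPM at 0 h, 340, 363 and 216 CPM at 3 h, 201, 202 and 209 CPM at 6 h, and 23.6, 24.2 and 25.5 CPM at 24 h. Mice 1, 2 and 4 of the Aim2-/- group carried 295, 218 and 293 CPM at 0 h, 208, 250 and 340 CPM at 3 h, 139, 143 and 158 CPM at 6 h, and 36.0, 23.6 and 26.3 CPM at 24 h. At 0 h all Aim2-/- libraries were above all WT libraries, and at 6 h all were below. In WT cells Nr4a2 rose 1.63-fold at 3 h (log2 0.70, SE 0.18, adjusted p = 0.00488), a call that was lost without WT mouse 3 (log2 0.52, adjusted p = 0.126). In Aim2-/- cells it did not pass at 3 h (log2 -0.02, SE 0.18, 95% interval -0.40 to 0.37) and fell to 0.545 times the 0 h level at 6 h (log2 -0.88, SE 0.18, adjusted p = 0.000417). The decline at 24 h was the deepest among the 8 genes, with log2 -2.94 (SE 0.20) in WT and -3.23 (SE 0.20) in Aim2-/- cells.

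Nr4a3 (ENSMUSG00000028341, chr4:48045153-48086447, plus strand) encodes Nor1, the third receptor of the family. In WT mice 1, 3 and 4 it measured 1268, 1068 and 1298 CPM at 0 h, 1357, 1546 and 1066 CPM at 3 h, 914, 960 and 1024 CPM at 6 h, and 299, 297 and 315 CPM at 24 h. In Aim2-/- mice 1, 2 and 4 it measured 1612, 1371 and 1514 CPM at 0 h, 827, 1236 and 1453 CPM at 3 h, 530, 666 and 710 CPM at 6 h, and 291, 268 and 287 CPM at 24 h. The 0 h and 3 h libraries overlapped in both genotypes, and at 6 h all libraries were below all 0 h libraries of their genotype. Nr4a3 was the member that did not pass for a rise at any time. Its 3 h change was log2 0.13 (SE 0.16, 95% interval -0.21 to 0.46) in WT and -0.35 (SE 0.16, adjusted p = 0.0993) in Aim2-/- cells, where it was called lower with mouse as a block (log2 -0.38, adjusted p = 0.0384). At 6 h it fell to 0.424 times the 0 h level in Aim2-/- cells (log2 -1.24, SE 0.16, adjusted p = 1.95e-06), while in WT cells the value was log2 -0.33 (SE 0.16, adjusted p = 0.0935). At 24 h it had dropped to 0.250 times in WT and 0.188 times in Aim2-/- cells.

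Egr1 (ENSMUSG00000038418, chr18:34859823-34864984, plus strand), the classical growth factor and antigen receptor response gene, rose most of the 8. WT mice 1, 3 and 4 showed 64.5, 65.04 and 70.8 CPM at 0 h, 582, 697 and 419 CPM at 3 h, 495, 606 and 561 CPM at 6 h, and 182, 189 and 183 CPM at 24 h. Aim2-/- mice 1, 2 and 4 showed 63.5, 62.5 and 67.5 CPM at 0 h, 289, 383 and 505 CPM at 3 h, 318, 341 and 375 CPM at 6 h, and 149, 153 and 124 CPM at 24 h. The genotypes overlapped at 0 and 3 h and did not overlap at 6 and 24 h, where every Aim2-/- library was lower. The rise at 3 h was 8.48-fold in WT (log2 3.08, SE 0.18, adjusted p = 3.70e-10) and 6.08-fold in Aim2-/- cells (log2 2.60, SE 0.17, adjusted p = 3.005e-09). It was held at 6 h, with 8.29-fold and 5.35-fold, and Egr1 was still 2.77-fold and 2.20-fold above 0 h at 24 h.

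Egr2 (ENSMUSG00000037868, chr10:67535475-67542188, plus strand) encodes a factor that restrains T cell responses and is needed for anergy. In WT mice 1, 3 and 4 its level was 160, 102 and 113 CPM at 0 h, 419, 406 and 248 CPM at 3 h, 496, 517 and 457 CPM at 6 h, and 228, 196 and 208 CPM at 24 h. In Aim2-/- mice 1, 2 and 4 its level was 136, 117 and 127 CPM at 0 h, 197, 264 and 360 CPM at 3 h, 297, 329 and 369 CPM at 6 h, and 199, 197 and 191 CPM at 24 h. Its highest mean was at 6 h in both genotypes. The difference from 3 h did not pass in WT (log2 0.45, SE 0.19, adjusted p = 0.0914) or Aim2-/- cells (log2 0.28, SE 0.19, adjusted p = 0.327), though with mouse as a block it passed in WT cells (log2 0.48, adjusted p = 0.0189). Against 0 h, Egr2 was up 2.85-fold at 3 h and 3.91-fold at 6 h in WT cells and 2.16-fold and 2.62-fold in Aim2-/- cells. It was still 1.68-fold and 1.54-fold above 0 h at 24 h, with adjusted p = 0.00174 and 0.00722, the latter lost without Aim2-/- mouse 2 (0.0675).

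Egr3 (ENSMUSG00000033730, chr14:70077203-70082614, plus strand) acts together with Egr2 in T cells. WT mice 1, 3 and 4 contained 124, 68.3 and 95.5 CPM at 0 h, 343, 358 and 204 CPM at 3 h, 222, 263 and 259 CPM at 6 h, and 94.03, 108 and 105 CPM at 24 h. Aim2-/- mice 1, 2 and 4 contained 82.9, 89.9 and 76.3 CPM at 0 h, 115, 228 and 232 CPM at 3 h, 91.3, 142 and 119 CPM at 6 h, and 57.5, 72.3 and 58.0 CPM at 24 h. All WT libraries were above all Aim2-/- libraries at 6 and 24 h. At 3 h Egr3 rose 3.14-fold in WT (log2 1.65, SE 0.25, adjusted p = 2.49e-05) and 2.31-fold in Aim2-/- cells (log2 1.20, SE 0.24, adjusted p = 0.0007475). At 6 h the rise was 2.58-fold in WT cells (adjusted p = 7.79e-05), while in Aim2-/- cells the value of log2 0.50 (SE 0.24) did not pass (adjusted p = 0.0919). At 24 h neither genotype differed from 0 h by the test, with log2 0.09 (SE 0.24) in WT and -0.41 (SE 0.24, adjusted p = 0.143) in Aim2-/- cells.

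Nab2 (ENSMUSG00000025402, chr10:127660918-127668568, minus strand), the EGR corepressor, overlaps Stat6, Nemp1 and an antisense transcript on the plus strand. Whether the counting used the strand is not stated, so its values are uncertain. WT mice 1, 3 and 4 gave 96.0, 124 and 125 CPM at 0 h, 238, 241 and 141 CPM at 3 h, 204, 256 and 247 CPM at 6 h, and 199, 214 and 201 CPM at 24 h. Aim2-/- mice 1, 2 and 4 gave 99.1, 103 and 108 CPM at 0 h, 107, 146 and 198 CPM at 3 h, 135, 165 and 174 CPM at 6 h, and 160, 181 and 178 CPM at 24 h. Unlike the other members it did not pass for a decline between 6 and 24 h (log2 -0.20, SE 0.19, in WT and 0.13, SE 0.19, in Aim2-/- cells). Its rise from 0 h was 1.79-fold, 2.05-fold and 1.78-fold at 3, 6 and 24 h in WT cells and 1.45-fold, 1.52-fold and 1.67-fold in Aim2-/- cells. All 6 values passed. The call at 3 h was lost in WT cells without the mouse labelled WT 1 (adjusted p = 0.06585) and in Aim2-/- cells without Aim2-/- mouse 2 (0.137), Aim2-/- mouse 4 (0.351) or WT mouse 3 (0.06), and that at 6 h in Aim2-/- cells without Aim2-/- mouse 2 (0.0802).

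Cd69 (ENSMUSG00000030156, chr6:129267325-129275436, minus strand) was already clearly expressed before stimulation. In WT mice 1, 3 and 4 it reached 354, 260 and 275 CPM at 0 h, 540, 680 and 520 CPM at 3 h, 466, 656 and 572 CPM at 6 h, and 185, 216 and 199 CPM at 24 h. In Aim2-/- mice 1, 2 and 4 it reached 265, 261 and 304 CPM at 0 h, 358, 519 and 658 CPM at 3 h, 350, 400 and 487 CPM at 6 h, and 156, 157 and 168 CPM at 24 h. All 3 h and 6 h libraries were above, and all 24 h libraries below, the 0 h libraries of their genotype. Cd69 rose 1.96-fold in WT (adjusted p = 0.000249) and 1.85-fold in Aim2-/- cells (adjusted p = 0.000696) at 3 h. At 6 h it was 1.91-fold and 1.49-fold above 0 h, the latter lost without Aim2-/- mouse 2 (adjusted p = 0.0688). At 24 h it had fallen to 0.676 times the 0 h level in WT (adjusted p = 0.0078) and 0.580 times in Aim2-/- cells (adjusted p = 0.000572), with the WT call lost without the mouse labelled WT 1 (adjusted p = 0.136).

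**Figure D2:**
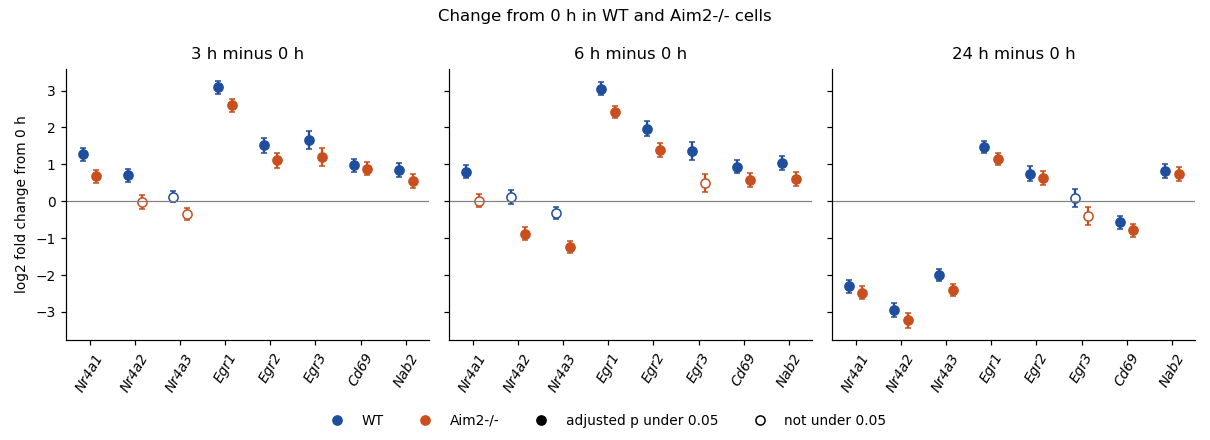
Log2 fold change from 0 h of the 8 genes at 3, 6 and 24 h in WT (blue) and Aim2-/- (orange) cells, with bars of 1 standard error and filled points where the adjusted p was under 0.05. Egr1 stands highest at 3 h (3.08 in WT) and Nr4a2 lowest at 24 h (-3.23 in Aim2-/-).

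Counted together, 7 of the 8 genes were called higher at 3 h in WT cells (32.6% of the 15325 tested genes called, 16.2% called higher) and 6 of 8 in Aim2-/- cells (30.7% and 16.1%). At 6 h 6 of 8 were called higher in WT cells (51.1% called, 26.4% called higher), and in Aim2-/- cells 4 were higher and 2 lower (51.2% called, 28.5% higher and 22.7% lower). At 24 h both genotypes had 3 genes higher, Egr1, Egr2 and Nab2, and 4 lower, the NR4A genes and Cd69, with a background of 71.4% of genes called in WT (36.6% higher, 34.8% lower) and 70.3% in Aim2-/- cells (36.8% higher, 33.5% lower). Between 3 and 6 h, 3 members fell in WT (25.7% of all genes called, 11.5% lower) and 4 in Aim2-/- cells (23.3% called, 9.89% lower). The NR4A genes fell in both, and Egr3 was called in Aim2-/- cells, a difference between genotypes that was not tested. The Aim2-/- calls of Nr4a1 and Egr3 were lost without Aim2-/- mouse 2 (adjusted p = 0.0509 and 0.12) or Aim2-/- mouse 4 (0.116 and 0.277). In WT cells none of the 3 calls was kept without the mouse labelled WT 1 or without WT mouse 3 (log2 -0.34 to -0.49). Between 6 and 24 h, 7 of 8 members fell in each genotype (57.6% and 54.3% of all genes called, 28.0% and 27.0% lower). At 24 h 7 of 8 members were thus called against 0 h beside 71.4% and 70.3% of all genes.

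The NR4A and EGR genes differed in how much each member contributed to its family. Levels were divided by the length of the longest transcript (CPM per kb) so that genes could be compared. The NR4A genes summed to 654 ± 56.6 CPM per kb at 0 h in WT cells (SD, n = 3). After stimulation the sums were 1259 ± 289, 903 ± 62.4 and 139 ± 6.44 in time order. The EGR genes summed to 81.5 ± 17.0, 324 ± 82.9, 352 ± 21.8 and 138 ± 2.63 over the same 4 times. The NR4A sum was thus several times the EGR sum at rest, and at 24 h the sums of WT cells were about equal.

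Within the NR4A family the mix shifted toward Nr4a1 during the first hours. Nr4a1 made up 58.2% ± 1.96 of the family at 0 h over the 6 mice (SD), 73.2% ± 1.85 at 3 h and 74.8% ± 0.709 at 6 h, and was back at 57.5% ± 1.09 at 24 h. Nr4a3 took the opposite course, from 32.9% ± 1.04 at 0 h to 19.7% ± 1.55 and 18.6% ± 0.563 at 3 and 6 h and 37.1% ± 1.52 at 24 h. Nr4a2 was the minor member throughout, with 8.85% ± 1.19, 7.20% ± 0.637, 6.62% ± 0.528 and 5.38% ± 0.790. All 6 mice moved the same way in 8 of the 9 changes from 0 h, each at the smallest p of the exact two-sided sign-flip test, 0.03125 (adjusted p = 0.0352 over 18 tests). The exception was Nr4a1 at 24 h, whose mean change was -0.719 percentage points.

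Within the EGR family the mix shifted toward Egr1. Its share went from 18.6% ± 2.57 at 0 h to 38.9% ± 2.00, 35.2% ± 1.35 and 28.8% ± 1.70 at 3, 6 and 24 h, higher than at 0 h in 6 of 6 mice each time (exact sign-flip p = 0.03125, adjusted p = 0.0352). Egr2 gave way at 3 h, from 53.1% ± 2.80 to 38.8% ± 2.46, and was the largest contributor at 6 h with 49.1% ± 2.98 and at 24 h with 54.8% ± 4.37. Egr3 fell from 28.3% ± 2.84 to 22.3% ± 2.63, 15.7% ± 2.84 and 16.4% ± 2.98. Of the 9 changes, only that of Egr2 at 24 h did not reach the smallest p (5 of 6 mice higher, exact p = 0.219). Between genotypes, with 3 mice each, the exact permutation test cannot go below p = 0.1, and no share passed. The widest gaps were at 24 h, where Egr2 made up 51.4% ± 2.83 of the family in WT and 58.2% ± 2.27 in Aim2-/- cells (exact p = 0.1, adjusted p = 0.3) and Egr3 18.8% ± 1.70 and 13.98% ± 1.38 (exact p = 0.1, adjusted p = 0.3).

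**Figure D3:**
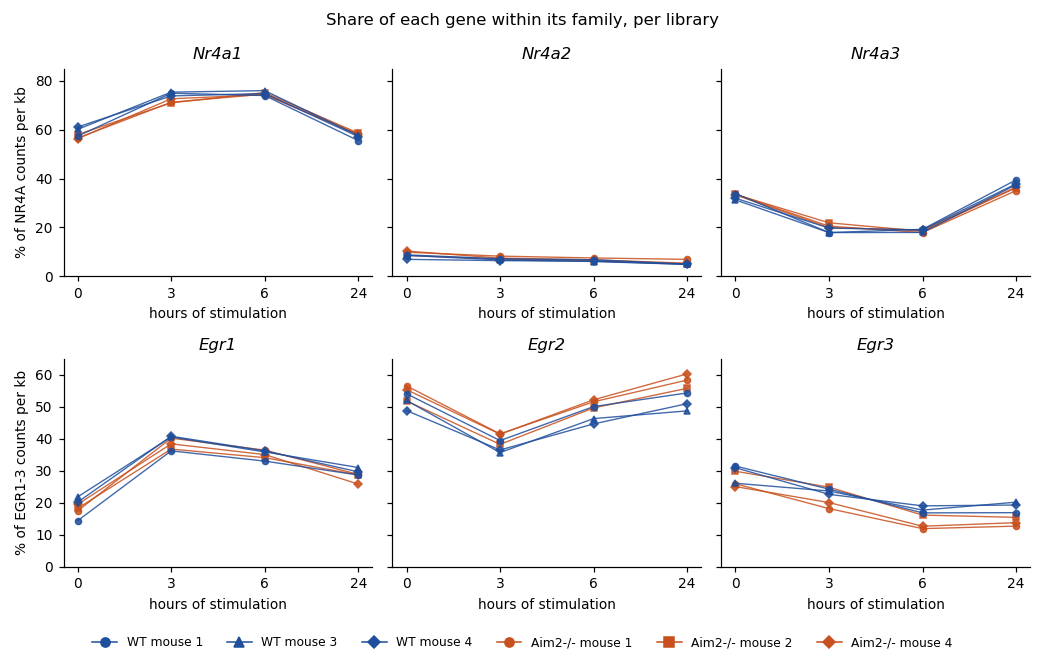
Share of each gene in the summed CPM per kb of its family (percent) against hours of stimulation, 1 line per mouse, WT in blue and Aim2-/- in orange. The lines of all 6 mice turn together, with Nr4a1 at 70.98 to 75.35% at 3 h against 56.3 to 61.1% at 0 h, and Egr1 at 36.25 to 40.8% against 14.4 to 21.8%.

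The comparison of Aim2-/- with WT cells asks whether loss of the DNA sensor changes these genes at rest or after stimulation. At 0 h none of the 8 genes passed in edgeR's test (5.23% of genes called), and 1, Nr4a2, had an unadjusted p under 0.05 (23.8% of all genes; DESeq2 called none). The 4 values above 0 were those of the NR4A genes and Egr2. Nr4a2 was 1.43-fold higher in Aim2-/- cells at 0 h (log2 0.52, SE 0.18, adjusted p = 0.091, and 0.0379 without Aim2-/- mouse 2) and Nr4a3 1.24-fold (log2 0.31, SE 0.16, adjusted p = 0.243), in both cases with no overlap between the groups, which 28.5% of all genes also showed. At 3 h all 8 values were below 0, between log2 -0.66 (Egr3) and -0.17 (Nr4a3), but in edgeR's test none passed (0.294% of genes called), 4 had an unadjusted p under 0.05 (15.3% of all genes), DESeq2 also called none, and in no member were the groups apart.

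At 6 h all 8 genes were lower in Aim2-/- cells and 5 were called (15.8% of genes called, 7.01% called lower), with all 8 at an unadjusted p under 0.05 (34.1% of all genes). Egr3 showed the widest gap, with 118 ± 25.4 CPM in Aim2-/- and 248 ± 22.7 CPM in WT cells (SD, n = 3, 0.474 times, log2 -1.08, SE 0.24, adjusted p = 0.0116). Egr1 followed with 345 ± 28.7 and 554 ± 55.9 CPM (0.623 times, log2 -0.68, SE 0.16, adjusted p = 0.0145). Nr4a3 stood at 635 ± 93.97 and 966 ± 55.0 CPM (0.657 times, log2 -0.61, SE 0.16, adjusted p = 0.0196) and Nr4a1 at 1147 ± 142 and 1727 ± 137 CPM (0.664 times, log2 -0.59, SE 0.17, adjusted p = 0.031). The corepressor Nab2 was lower too, with 158 ± 20.6 and 236 ± 27.6 CPM (0.669 times, log2 -0.58, SE 0.19, adjusted p = 0.0435). Egr2 (log2 -0.56, SE 0.19, adjusted p = 0.0515, and 0.0443 in limma-voom with mouse as a random block), Nr4a2 (log2 -0.48, SE 0.18, adjusted p = 0.0737) and Cd69 (log2 -0.45, SE 0.18, adjusted p = 0.0815) did not pass. In 7 of the 8 genes every Aim2-/- library was below every WT library, which held in this direction for 17.0% of all genes. The exception was Cd69, where the highest Aim2-/- library (487 CPM) exceeded the lowest WT library (466 CPM, mouse labelled WT 1). The median over the 8 genes was log2 -0.58 and that over all tested genes 0.05.

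The number of calls at 6 h depended on the mice. Without the mouse labelled WT 1, again 5 were called (Nr4a1, Nr4a3, Egr1, Egr3 and Nab2, beside 11.4% of all genes), and the values lay between log2 -1.15 and -0.49. Without WT mouse 3 or WT mouse 4 none of the 8 was called (1.14% and 0.607% of all genes), without Aim2-/- mouse 1 only Egr3 (1.92%), without Aim2-/- mouse 2 Nr4a1, Nr4a3, Egr1 and Egr3 (25.7%), and without Aim2-/- mouse 4 only Nr4a3 and Egr1 (2.71%). All 8 values stayed below 0 each time. The B cell, myeloid and NK cell marker sums given above moved with genotype at 6 h with no overlap between the groups. So did 4 heat shock genes (Hspa1a, Hspa1b, Hsph1 and Dnajb1). They summed to 367.9 to 504.8 CPM in Aim2-/- and 562.8 to 576.6 CPM in WT cells. The genes were listed as markers of stress during isolation. Over all libraries Hsph1 stood at 99.9 to 537 CPM and Dnajb1 at 89.2 to 149 CPM. Hspa1a and Hspa1b reached at most 16.7 and 21.5 CPM, so much of the sum can come from Hsph1. The sum was lowest at 0 h. It was then 264.7 to 269.1 CPM in Aim2-/- and 250.8 to 262 CPM in WT cells, and it was higher at each time of culture. The NK cell and heat shock sums were not terms of a model, and their part in the result was not tested. When the model also held the mean log2 CPM of each of the erythroid, B cell and myeloid lists, the 8 values lay between log2 -0.66 and -0.25 and none was called (adjusted p = 0.185 to 0.574), as was so for nearly all genes (0.176% called).

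**Figure D4:**
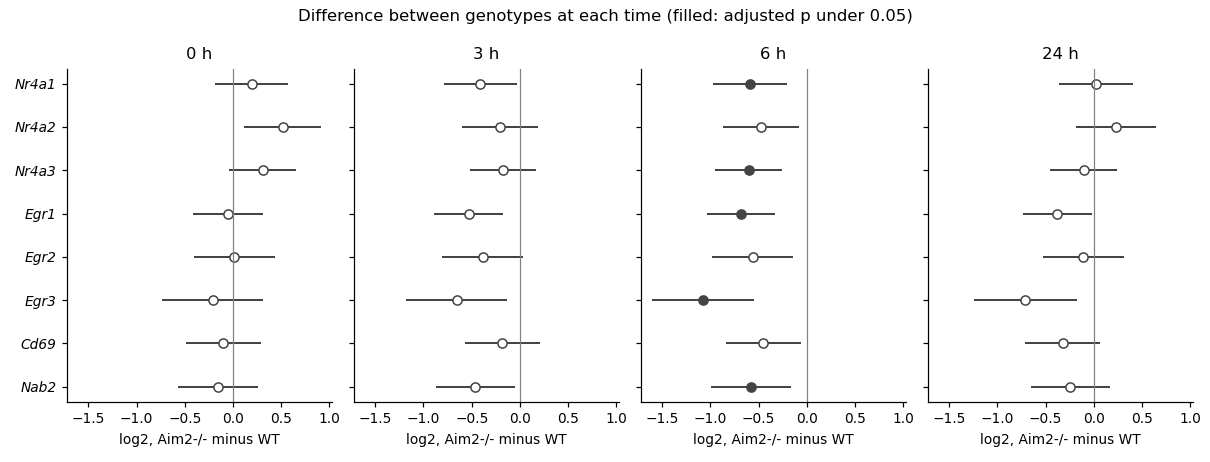
Log2 difference between Aim2-/- and WT cells for the 8 genes at 0, 3, 6 and 24 h, with 95% intervals and filled points where the adjusted p was under 0.05. All points lie left of 0 at 3 h and at 6 h, from -1.08 for Egr3 to -0.45 for Cd69 at 6 h, and no point is filled at 0, 3 or 24 h.

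At 24 h edgeR called none of the 8 between genotypes (0.666% of genes called), with 2 at an unadjusted p under 0.05 (20.5% of all genes), and DESeq2 called 1, Egr3. Egr3 was at 62.6 ± 8.44 CPM in Aim2-/- and 102 ± 7.37 CPM in WT cells (log2 -0.71, SE 0.24, adjusted p = 0.129, and 0.0474 in DESeq2) and Egr1 at 142 ± 15.8 and 185 ± 3.92 CPM (log2 -0.38, SE 0.16, adjusted p = 0.198). In 5 of the 8 genes, Nr4a3, Egr1, Egr3, Cd69 and Nab2, every Aim2-/- library was below every WT library at 24 h, as was so in this direction for 10.2% of all genes. The NR4A genes were close together, with differences between log2 -0.10 and 0.23.

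**Figure D5:**
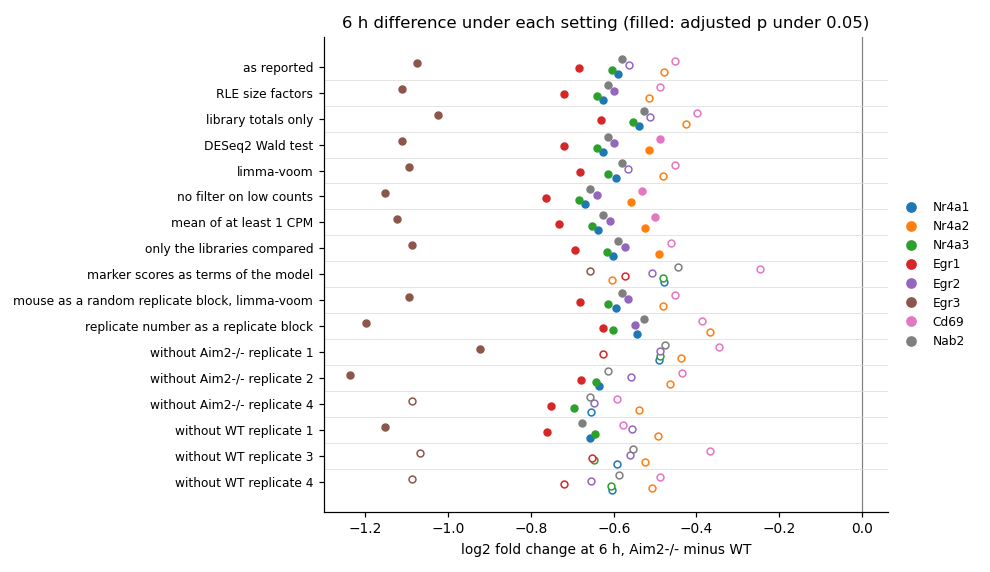
Log2 difference between Aim2-/- and WT cells at 6 h for the 8 genes (colours) under the reported model and 16 other settings (rows), filled where the adjusted p was under 0.05. All points lie below 0, and the number of filled points runs from 0 to 8.

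Whether stimulation itself changed a gene differently in the genotypes was asked with an interaction term. In edgeR's test it was called for none of the 8 genes at 3 h (0.0% of genes called), 6 h (0.0261% called) or 24 h (0.0% called), while 3, 6 and 0 of the 8 had an unadjusted p under 0.05 (4.26%, 13.2% and 11.9% of all genes). At 6 h all 8 responses were smaller or more negative in Aim2-/- cells, with Nr4a2 at log2 -0.99 (SE 0.26, adjusted p = 0.0941), Nr4a3 at -0.91 (SE 0.22, adjusted p = 0.083), Egr3 at -0.87 (SE 0.34, adjusted p = 0.274) and Nr4a1 at -0.78 (SE 0.25, adjusted p = 0.172). The 4 libraries of a mouse are paired by the labels, and the test above leaves this pairing out. With mouse as a block the 3 NR4A genes passed at 6 h (adjusted p = 0.046, 0.0173 and 0.0156 for Nr4a1, Nr4a2 and Nr4a3, beside 4.68% of all genes called) and no other member did. Without the mouse labelled WT 1 the blocked fit called Nr4a2, Nr4a3 and Egr3 (adjusted p = 0.033, 0.0315 and 0.0374, beside 3.49% of all genes) and no longer Nr4a1 (adjusted p = 0.0813), an alternative chosen after seeing the data. DESeq2 called the 3 NR4A genes (adjusted p = 0.0473, 0.0107 and 0.00695, beside 2.80% of all genes).

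Taken per mouse, the log2 change of Nr4a1 from 0 to 6 h was 0.70 to 0.98 in WT and -0.30 to 0.19 in Aim2-/- mice. That of Nr4a2 was -0.03 to 0.25 in WT and -1.09 to -0.61 in Aim2-/- mice, and that of Nr4a3 -0.47 to -0.15 and -1.61 to -1.04. The genotypes were thus apart in each NR4A gene. In 7 of the 8 genes, all but Cd69, the 6 h responses of the Aim2-/- mice lay below those of all WT mice (exact two-sided permutation p = 0.1 for each gene, the smallest possible with 3 against 3). This held in the same direction for 12.9% of all tested genes.

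At 3 h the mice of a genotype kept nearly the same order in all 8 genes. The coefficient of variation between them at 3 h was 15.06 to 28.07% in WT and 25.35 to 34.69% in Aim2-/- cells. At 3 h, WT mouse 4 was the lowest of the WT mice in 8 of 8 genes, against 36.3% of all tested genes. Aim2-/- mouse 1 was the lowest (32.3% of all genes) and Aim2-/- mouse 4 the highest (33.5% of all genes) of its group in 8 of 8. Aim2-/- mouse 1 was again the lowest in 8 of 8 genes at 6 h (34.8% of all genes), whereas at 0 h it was the lowest in 1 of 8 (37.5%). The mouse labelled WT 1 was lowest in 7 of 8 genes at 6 h (39.5%). The CD4 T cell marker sum at 3 h was also lowest in WT mouse 4 (3836 CPM against 4900 and 4635 in WT mice 1 and 3), and lowest in Aim2-/- mouse 1 (4416 CPM) and highest in Aim2-/- mouse 4 (4968 CPM) of its group. Aim2-/- mouse 1 had the highest myeloid (344.2 CPM against 109.6 and 136.9) and B cell marker sums at 3 h (36.4 CPM against 8.94 and 12.3). Their part in this order was not tested.

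Over the 24 libraries the log2 CPM of the NR4A genes ran closely together, with Pearson's r of 0.97 between Nr4a1 and Nr4a2, 0.96 between Nr4a2 and Nr4a3 and 0.90 between Nr4a1 and Nr4a3. Egr1 and Egr2 had r = 0.94. Across the families r ran from 0.02 between Nr4a3 and Egr2 to 0.72 between Nr4a1 and Egr3, and Egr3 had the highest value of the EGR genes with each NR4A gene (0.72, 0.57 and 0.51). Cd69 had r = 0.91 with Nr4a1, 0.89 with Egr3 and 0.71 with Egr1. These are descriptions over libraries that share mice and time points. Among all other protein-coding genes the patterns most like that of Nr4a1 were those of Vsir, an immune checkpoint gene (r = 0.98), Csrnp1, itself an immediate early gene (r = 0.98), and Kdm6b, a histone demethylase (r = 0.98). For Nr4a2 they were Fyn, a kinase in T cell receptor signalling (r = 0.98), Arih2 (r = 0.98) and Sik3 (r = 0.98), and for Nr4a3 Zswim4 (r = 0.98), the NF-kB subunit Rel (r = 0.97) and the clock gene Per1 (r = 0.97). Egr1 was followed most closely by Sema7a (r = 0.97), Zfp948 (r = 0.97) and Eif4g3 (r = 0.96), and Egr2 by Zbed5 (r = 0.95), Egr1 and Zfp948 (r = 0.94). For Egr3 these were Arf3 (r = 0.93), Tagap (r = 0.93) and Gpr183 (r = 0.92), for Cd69 Zfp52 (r = 0.96), Sh2b3 (r = 0.955) and the clock gene Per2 (r = 0.94), and for Nab2 Wiz (r = 0.94), Srfbp1 (r = 0.93) and Nsun5 (r = 0.93).

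Other immediate early genes did not move as a block. Of 24 such genes, all tested, 9 were called higher and 7 lower at 3 h in WT cells (median log2 0.30, that of all genes 0.02), beside 16.2% and 16.4% of all genes. In Aim2-/- cells 6 were higher and 9 lower, beside 16.1% and 14.6%. The largest changes at 3 h in WT cells were in Egr4, the remaining EGR gene (log2 3.61, SE 0.72), the AP-1 subunit Fosl1 (log2 3.59, SE 0.40), the cytokine Tnf (log2 2.78, SE 0.19) and the growth regulator Myc (log2 2.60, SE 0.20). At 6 h between genotypes 2 of the 24 were higher and 5 lower in Aim2-/- cells, beside 8.78% and 7.01% of all genes. Tnf (log2 -0.63, adjusted p = 0.0258) and Myc (log2 -0.59, adjusted p = 0.0405) were among the lower ones.

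Of 16 upstream regulators, 3 were called higher and 6 lower at 3 h in WT cells, and 2 higher and 4 lower in Aim2-/- cells, beside 32.6% and 30.7% of all genes called in either direction. The calcium-responsive factor Nfatc2 (log2 -1.32, SE 0.13) and Mef2d (log2 -1.24, SE 0.09), a MEF2 factor, fell, whereas the serum response factor Srf (log2 0.99, SE 0.11) rose. Mef2c (log2 0.82, SE 0.46, adjusted p = 0.187) did not pass. Between genotypes at 6 h 3 of the 16 were higher and 4 lower in Aim2-/- cells (8.78% and 7.01% of all genes), and Srf was among the lower ones (log2 -0.37, adjusted p = 0.0324).

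Of the 5 genes grouped as partners, namely the corepressor Nab1, the NR4A dimer partners Rxra and Rxrb, the CD69 target S1pr1 and its activator Klf2, 4 fell at 3 h and 5 at 6 h in both genotypes, beside 16.4% (WT) and 14.6% (Aim2-/-) of all genes at 3 h and 24.8% and 22.7% at 6 h. S1pr1 fell most (log2 -1.98, SE 0.19, at 3 h in WT cells), followed by Klf2 (log2 -1.18, SE 0.21). Then came Rxrb (log2 -0.48) and Rxra (log2 -0.41). None of the 5 was called between genotypes at 6 h in edgeR's test.

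Genes tied to EGR2 and EGR3 in T cells gave 1 higher and 3 lower of 10 at 3 h in both genotypes, beside 32.6% of all genes called in WT and 30.7% in Aim2-/- cells. The rise was that of the cytokine signalling inhibitor Socs1 (log2 4.27, SE 0.26, in WT cells), while Dgka (log2 -0.79, SE 0.10), which dampens diacylglycerol signalling, and Ndrg1 (log2 -0.79, SE 0.18) fell. At 6 h between genotypes 1 of 10 was lower (7.01% of all genes), the ubiquitin ligase Cblb (log2 -0.48, adjusted p = 0.0382), named here after its value was seen. Of 10 genes tied to NR4A factors, 2 rose, Foxp3 (log2 1.35, SE 0.26) and Batf (log2 0.83, SE 0.13), and 1 fell, Ctla4 (log2 -0.84, SE 0.23), at 3 h in WT cells. In Aim2-/- cells 1 rose and 1 fell. With 10 genes a list, the shares called at 3 h set neither list apart from all genes (32.6% in WT and 30.7% in Aim2-/- cells). They were 40% in both genotypes in the list tied to EGR2 and EGR3. Of the 10 tied to NR4A factors, 30% in WT and 20% in Aim2-/- cells were called. Between genotypes at 6 h 2 of these 10 were higher in Aim2-/- cells (8.78% of all genes), Batf (log2 0.78, adjusted p = 0.00369) and Tigit (log2 0.71, adjusted p = 0.0461), the latter named after its value was seen, and none was lower. The median of the 10 was log2 0.52 and that of all tested genes 0.05. Their median was also above 0 at 0, 3 and 24 h (log2 0.60, 0.43 and 0.62). At 0 h 3 of the 10 were called higher, beside 3.24% of all genes. The 6 h interaction was called for none of the 10 (0.0261% of all genes), with a median of log2 -0.09.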

How the data were processed

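RNA from splenic CD4+ T cells of 3 WT and 3 Aim2-/- mice was sequenced after 0, 3, 6 and 24 h of stimulation. The authors deposited raw counts per Ensembl gene. The submitters' processing notes name STAR, DESeq2, edgeR and GRCm38 without versions, and whether strand was used in counting is not given in the sources used here. Library totals were 19715161 to 21627018 counts. Genes were kept with filterByExpr (minimum count 10), which left 15325 of 54446, and library sizes were scaled with TMM factors. One model with a mean for each of the 8 groups was fitted to all 24 libraries with edgeR 4.0.16 in R 4.3.3 (quasi-likelihood test, two-sided), and p-values were adjusted by Benjamini-Hochberg over all genes, with 0.05 as threshold. The fit was run on simulated counts that held known changes but no mouse effect and no difference in cell content. That run therefore does not cover those features of these data. Shares within a family used counts per kb of the longest GENCODE M21 transcript. Their exact tests were enumerated in Python 3.11.15 with numpy 2.4.6, adjusted over 18 tests between times and 24 between genotypes. Log2 CPM values used a prior count of 2. Alternatives used RLE factors, library totals, DESeq2 1.42.0, limma 3.58.1 (voom), other filters, fewer libraries, marker scores, blocks and each mouse left out. The 4 libraries of a mouse share its number in the labels. Their deviations from the group means correlated at 0.139 to 0.567 in all 36 same-mouse pairs. Between other mice of the genotype at other times the values were -0.432 to 0.0742. These are pushed down because deviations within a group sum to 0. Mouse is thus a block for stimulation by the labels and by the same-mouse values. The reported model holds no mouse term, so its stimulation and interaction tests leave this pairing out. Fits with mouse as a block are given as alternatives. Named genes were the 8 genes, Aim2, the 3 protein-coding genes with the highest r to each, and up to 4 genes of each pathway list with the largest change at 3 h in WT cells. The 8 genes and the lists were chosen with earlier results of these data known.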

Additional observations from a re-analysis of the deposited data

How the results depend on the processing

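Among the 8 genes, 5 calls were made between genotypes over the 4 times. This count was 9 with DESeq2, 13 with no filter on low counts, 8 with a mean of at least 1 CPM, 0 with marker scores as terms of the model and 9 with the replicate number as a replicate block, and leaving out each mouse gave 0 to 5. For the interaction, 0 calls were made in edgeR's test. It became 3 with DESeq2, 4 with no filter, 3 with marker scores, 3 with mouse as a replicate block and 3 with that block without the mouse labelled WT 1, and was 0 to 0 with each mouse left out. Calls against 0 h were 20 in WT cells (18 to 21 with a mouse left out) and 19 in Aim2-/- cells (14 to 20), and calls between neighbouring times were 10 (7 to 10) and 11 (9 to 11). All these counts stayed within 1.5 times the reported one under every alternative run. No called value changed sign. All these are counts over the 8 genes alone. The share of all genes called also moved between settings, as given above for the genotype comparison and the interaction at 6 h. The counts therefore do not set the 8 genes apart from other genes. Without division by length, Nr4a2's share at 3 h and 6 h lost its call (adjusted p = 0.0703), and with 1 mouse left out the shares allow no call (smallest p 0.0625). With marker scores as terms, the rises of Egr2 and Nab2 at 24 h were lost in both genotypes, and in Aim2-/- cells so were those of Nab2 at 3 h (adjusted p = 0.127) and 6 h (0.144) and of Cd69 at 6 h (0.254), while the falls of Nr4a3 (WT 6 h, Aim2-/- 3 h), Egr3 (Aim2-/- 24 h) and Cd69 (Aim2-/- 3 to 6 h) were gained. The causes were not tested. Replicate numbers of different genotypes name different mice and pair nothing. With 3 mice a group, the spread between mice limits the genotype comparison. With mouse as a replicate block the other calls that changed were those of Nr4a3 at 3 h in Aim2-/- cells and Egr2 between 3 and 6 h in WT cells, both gained, and as a random block that of Egr2 at 6 h between genotypes (adjusted p = 0.0443).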
